A study of Cavia porcellus with 238 samples.

Results

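The apolipoproteins and the genes of high-density lipoprotein (HDL) metabolism form a set of 10 genes, APOA1, APOA2, APOA4, APOB, APOC3, APOE, APOH, LCAT, CETP and SCARB1, in a guinea pig (GP, Cavia porcellus) RNA-seq table of 16009 genes. The members were chosen by their liver levels in the 4 groups, and all 10 were present. Liver levels and liver group differences are therefore given as a description. The animals were 24 Dunkin Hartley GPs (strain HsdDhl:DH), with 6 female breeders (BF), 6 female non-breeders (NF), 6 male breeders (BM) and 6 male non-breeders (NM). Breeders lived with a partner of the other sex and their young, non-breeders with a partner of their own sex, and breeding females were sampled once they no longer nursed their second litter. By then the authors had taken out the male partners, near the second birth, and the young, after weaning. The animals were 0.95 to 0.97 years old, except BM 20, BM 22, NM 18 and NM 19, which were 0.74 years old. RNA of 10 tissues per sex was sequenced into 238 libraries, 1 of which, from the thyroid of NM 19, was left out.

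Lipoproteins are particles of fat, cholesterol and protein that carry lipids through the blood. APOB is the structural protein of very low-density and low-density lipoprotein, which the liver secretes, and APOA1 and APOA2 are the structural proteins of HDL. Lecithin-cholesterol acyltransferase (LCAT) esterifies the cholesterol in HDL, cholesteryl ester transfer protein (CETP) moves the esters to APOB particles, and the receptor SCARB1 takes esters from HDL into liver and steroid-producing cells. GPs carry most of their plasma cholesterol in low-density lipoprotein and little in HDL, and unlike mice and rats they have CETP in plasma.

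Libraries held 3551108 to 22277626 counts, and in liver 13100629 to 20447520 counts. Levels are CPM, counts scaled to the same total in every library, and a gene with no count in the smallest library could have up to 0.845 CPM (3 counts, counting error only). CPM is not corrected for gene length, so levels are compared between samples and not between genes. All libraries come from pieces of tissue, in which fewer cells of a type and less RNA per cell cannot be told apart. Albumin (ALB), the defining hepatocyte gene, had 59272 to 92709 CPM in the 24 livers. Outside liver it was at most 27.5 CPM, in the adrenal gland of BF 01, except for the skin of NM 30 with 171 CPM. This skin library had 0.19% of the ALB level of the liver of the same animal, and the other 23 skins had at most 2.00 CPM. In it 13 of 14 hepatocyte markers were above every other skin, as were APOA2, APOA4, APOB and APOH, 4 of the 10 members, with 2.14, 9.99, 14.5 and 7.47 CPM. The highest values in the other skins were 0.817, 3.47, 0.0762 and 0.067 CPM in the same order of genes. The levels calculated from the ALB share were 0.945, 6.87, 9.04 and 8.82 CPM in the same order, so only APOH was below its calculated level. The hepatocyte markers summed to 1069 CPM in this library and to at most 1871 CPM in the other skins. No skin median moved by more than the spread between animals when this library was left out.

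Across tissues the members ranged from genes of liver alone to genes transcribed in every tissue. The 10 members together took 2.97 to 4.04% of all counts in a liver library (median 3.35%), and at most 0.687% in any library of another tissue. A member was counted as present in a tissue when its median was at least 1 CPM, which held for 65 of the 110 pairs of gene and tissue. APOB and APOA2 reached it only in liver, APOH in liver and kidney, APOA1 and APOC3 in 5 tissues each, APOA4 in 7, and APOE, LCAT, CETP and SCARB1 in all 11.

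**Figure D1:**
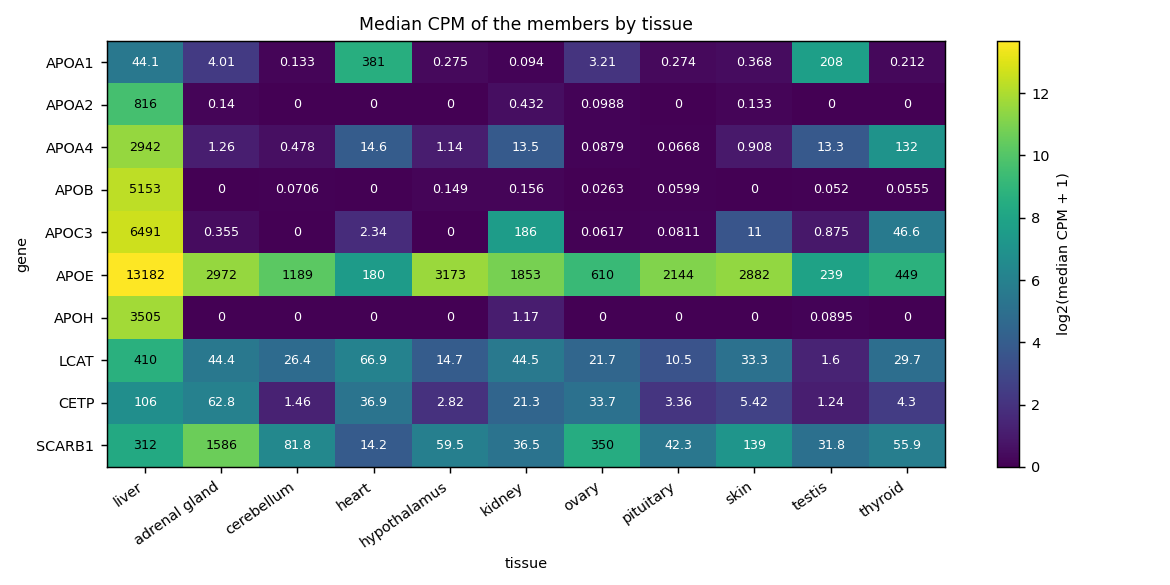
Median level of each member (rows) in each tissue (columns), printed as CPM, with the colour giving log2(median CPM + 1). Liver holds the highest median of 8 members, while APOA1 is highest in heart with 381 CPM and SCARB1 in adrenal gland with 1586 CPM.

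APOB, APOA2 and APOH were the members most strongly tied to liver. APOB ranged from 3802 to 7885 CPM (median 5153) over the livers and had medians of at most 0.156 CPM elsewhere. APOA2 ranged from 474 to 1422 CPM (median 816) over the livers, and its next highest median was 0.432 CPM, in kidney. APOH, or beta-2-glycoprotein I, a plasma protein that binds anionic phospholipids, ranged from 2622 to 4641 CPM (median 3505) over the livers, and 1.17 CPM was its median in kidney. None of the liver ranges of these 3 genes overlapped with those of another tissue.

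APOA4 and APOC3, which lie side by side in the genome, had further sites of transcription. APOC3 restrains the clearance of triglyceride-rich particles, and APOA4 is a protein of chylomicrons and HDL. APOC3 ranged from 4734 to 9854 CPM (median 6491) in liver, from 33.7 to 483 CPM (median 186) in kidney, from 32.4 to 174 CPM (median 46.6) in thyroid, and had a median of 11.01 CPM in skin. APOA4 ranged from 1590 to 6312 CPM (median 2942) in liver and from 61.6 to 357 CPM (median 132) in thyroid, where all 22 libraries stood above every library of the remaining tissues other than liver. Its medians in heart, kidney and testis were 14.6, 13.5 and 13.3 CPM, and these neighbours in the order overlapped. ALB in the same thyroids was at most 6.30 CPM, and each thyroid library had more than 10 times the APOA4 and APOC3 levels calculated from its ALB.

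APOE, a ligand of lipoprotein receptors that macrophages and astrocytes also secrete, was high in every tissue. Its liver range was 11273 to 18374 CPM (median 13182), followed by hypothalamus (median 3173 CPM), adrenal gland (2972 CPM), skin (2882 CPM), pituitary (2144 CPM) and kidney (1853 CPM). Hypothalamus was above adrenal gland in 13 of 24 animals, so these neighbours could not be ordered. Heart had the lowest median, 180 CPM.

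LCAT was highest in liver, with 297 to 532 CPM (median 410), and above its next tissue, heart (median 66.9 CPM), in 24 of 24 animals. Testis had the lowest LCAT median, 1.60 CPM, and its range did not overlap with that of pituitary, its neighbour in the order. CETP was less restricted. Its medians were 106 CPM in liver, 62.8 CPM in adrenal gland, 36.9 CPM in heart, 33.7 CPM in ovary and 21.3 CPM in kidney, and liver was above adrenal gland in only 16 of 24 animals. 

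SCARB1 was highest in the adrenal gland, followed by ovary and liver, whose ranges overlapped. Adrenal glands held 1157 to 1957 CPM (median 1586), ovaries 161 to 1326 CPM (median 350) and livers 180 to 440 CPM (median 312). The adrenal gland was above the ovary in 12 of 12 females, and the ovary was above the liver in 11 of 12. The highest ovary was that of NF 09 with 1326 CPM, against 747 CPM or less in the others. STAR, which moves cholesterol into mitochondria for steroid synthesis, was also highest in this ovary, with 7349 CPM against 150 to 2313 CPM in the other 11. In testis, the other steroid-producing gonad, SCARB1 had a median of 31.8 CPM.

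APOA1 did not follow the other liver apolipoproteins. Hearts held 317 to 755 CPM (median 381), testes 194 to 277 CPM (median 208) and livers 7.55 to 967 CPM (median 44.1). Heart was above liver in 23 of 24 animals, with a median ratio of 8.59, and NF 06 was the exception with 456 CPM in heart and 967 CPM in liver. By group, hearts held 317 to 356 CPM in BF, 348 to 484 CPM in NF, 331 to 569 CPM in BM and 337 to 755 CPM in NM, and the 4 ranges overlapped. Testis was above liver in 12 of 12 males, with ratios of 3.77 to 25.7. The highest liver was 128 times the lowest, against 2.38 times for heart. These levels rest on 121 to 14750 counts per liver library, so counting error is small beside the spread between animals. ALB in the hearts was at most 10.3 CPM, and all 24 hearts had more than 10 times the APOA1 level calculated from their ALB. The counting did not use strand, and SIK3, the next gene in the annotation, could share reads with APOA1 if their transcripts overlap.

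**Figure D2:**
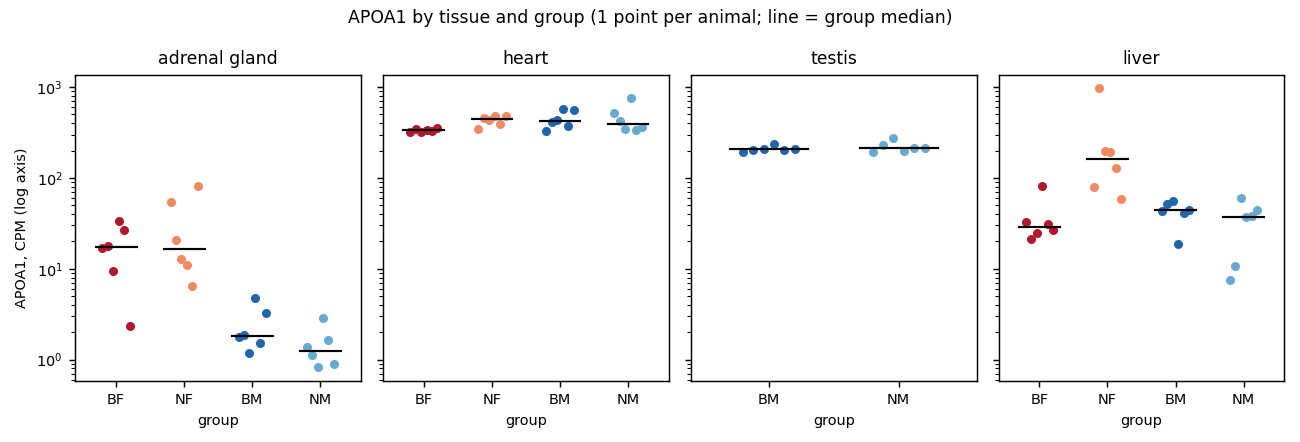
APOA1 in CPM (log axis) in adrenal gland, heart, testis and liver, with 1 point per animal, columns for the groups and a line at each group median. Hearts and testes stay within 194 to 755 CPM, livers spread from 7.55 to 967 CPM with NF highest, and the adrenal glands of females lie mostly above those of males.

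The liver comparisons asked whether breeding status or sex goes with the level of the members. Because these liver values chose the members, fold changes are given with their SE as a description and no test of a single member is given. All values come from 1 edgeR quasi-likelihood fit of the 24 livers over all genes, in which a gene was called at a Benjamini-Hochberg adjusted p (FDR) below 0.01. The counts of members called stand here beside those of all genes, and nothing about the members is read from them. In NF against NM 1 member was called, as higher, beside 0.377% of all genes (47 of 12474) and 0.249% called as higher. In BF against BM 1 member was called, as lower, beside 0.305% of all genes (38 of 12474) and 0.192% called as lower. No member was called in BF against NF, where 0.016% of genes were called (2 of 12474). None was called in BM against NM or in the interaction of sex and status either, where the share was 0%. At an unadjusted p below 0.05, edgeR gave 3 members in BF against NF, none in BM against NM and 2 in the interaction. It gave 6 in NF against NM and 2 in BF against BM. The share of all genes below 0.05 is not given beside these counts, so no excess can be read from them. DESeq2 called 1 member in BF against NF (0.572% of all genes), none in BM against NM (0.00648%) and none in the interaction (0%). In each sex comparison it called 1 member, beside 2.41% of all genes in NF against NM and 1.58% in BF against BM.

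APOA1 had 58.0, 79.3, 128, 193, 199 and 967 CPM in the 6 NF livers. In BF livers it had 21.5 to 32.5 CPM in 5 animals and 81.2 CPM in BF 12. BM livers ranged from 18.9 to 55.5 CPM (median 44.1), and NM livers from 7.55 to 59.8 CPM (median 37.6). NF were the highest group, and their lowest animal overlapped only with BF 12 and NM 23. The log2 fold change was 3.02 (SE 0.58) in NF against NM and -2.96 (SE 0.58) in BF against NF, and 0.33 (SE 0.54) in BM against NM. Without NF 06, it was 2.07 in NF against NM and -2.01 in BF against NF. The 2 lowest NM livers were those of NM 18 and NM 19, the younger animals, with 7.55 and 10.8 CPM. Without the 4 younger males, NF against NM had a log2 fold change of 2.57. Hepatocyte markers summed to 137970 to 169044 CPM in NF and 149033 to 179262 CPM in NM. Stellate cell and fibroblast markers summed to 428 to 937 CPM in NF and 543 to 1332 CPM in NM, with 6 of 6 lower in NF and none called, and their part in the result was not tested.

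SCARB1 had 180 to 244 CPM in BF livers (median 210), 252 to 382 CPM in NF livers (median 284), 273 to 440 CPM in BM livers (median 392) and 331 to 420 CPM in NM livers (median 399). BF livers overlapped with no other group. In BF against BM the log2 fold change was -0.84 (SE 0.15), a median ratio of 0.535. In BF against NF it was -0.60, in NF against NM -0.31 and in BM against NM -0.07 (SE 0.15 each). Among genes with a median of at least 1 CPM in liver, 1.51% had no overlap between BF and BM and 1.22% none between BF and NF. Macrophage and Kupffer cell markers summed to 349 to 552 CPM in BF, 430 to 911 CPM in NF, 471 to 842 CPM in BM and 458 to 671 CPM in NM, and 10 of 10 tested markers were lower in BF than in BM, none of them called. Endothelial markers summed to 393 to 498 CPM in BF and 507 to 697 CPM in BM, with 5 of 5 lower in BF, and hepatocyte markers to 127463 to 162267 CPM in BF and 140360 to 187637 CPM in BM, none of them called. The part of these cells in the result was not tested. Without the 4 younger males the log2 fold change in BF against BM was -0.71.

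Over the other 8 members the log2 fold changes of the 4 group comparisons lay between -0.37 and 0.80. APOA2 had 818 to 1422 CPM in BF (median 1084) and 474 to 989 CPM in BM (median 802), with a log2 fold change of 0.53 (SE 0.17). In NF against NM, APOA4, APOC3, APOA2, APOE and LCAT had log2 fold changes of 0.80, 0.50, 0.47, 0.34 and 0.34 (SE 0.14 to 0.28). The median over the 10 members was 0.34 in NF against NM, beside 0.01 over all genes tested, and -0.20 in BF against NF, beside 0.00. APOB was the most even, with log2 fold changes of 0.05 to 0.09 in the 4 group comparisons, and their 95% intervals lay within -0.29 to 0.42. APOE had 12932 to 14981 CPM in BM and 11775 to 12869 CPM in NM, with no overlap. Its log2 fold change in BM against NM was 0.13 (SE 0.14), and 0.39% of genes with at least 1 CPM had no overlap in this comparison.

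**Figure D3:**
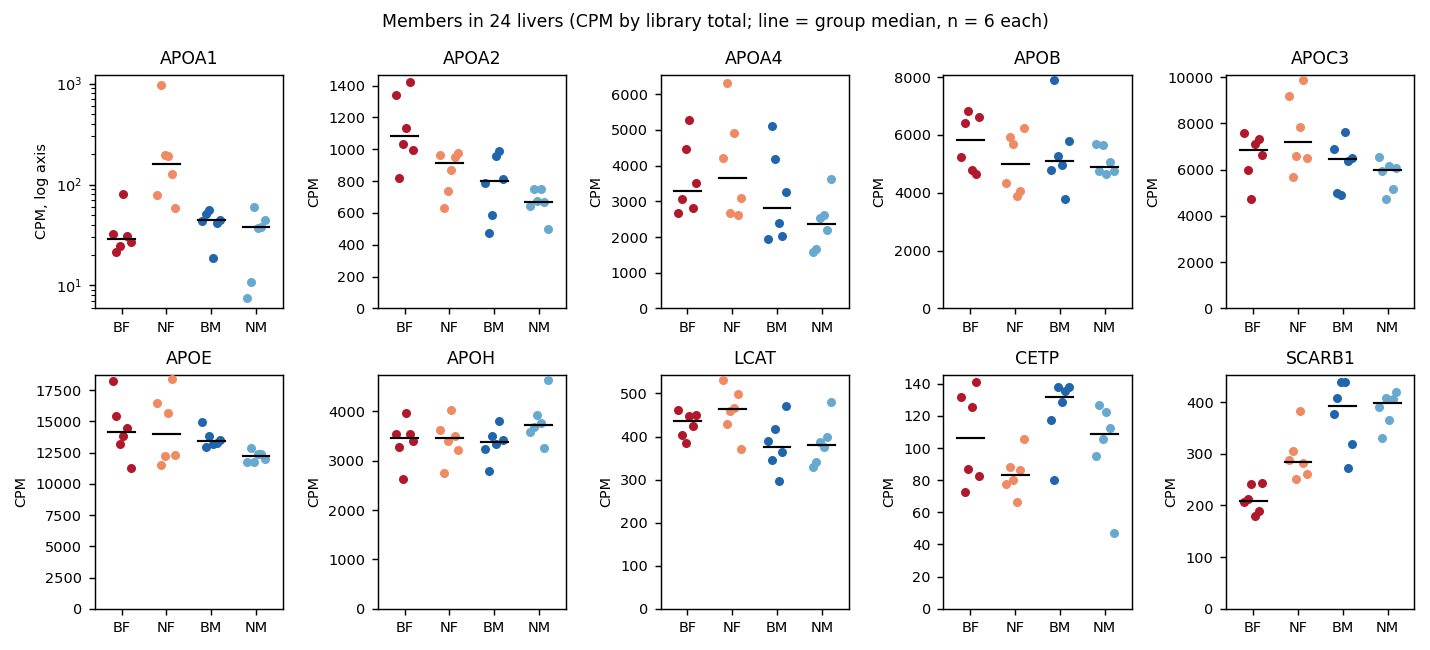
Levels of the 10 members in the 24 livers in CPM, with 1 point per animal, columns for BF, NF, BM and NM, and a line at each group median (APOA1 on a log axis, the others from 0). NF livers hold the highest APOA1 values, up to 967 CPM, and BF livers the lowest SCARB1 values, 180 to 244 CPM.

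Other lipoprotein genes were followed in 5 lists of 77 genes, of which 67 were in the table and 65 were tested in liver. In liver 1 of the 65 was called, in BF against BM. This was NR1H4, the bile acid receptor, with 110 to 158 CPM in BF and 216 to 318 CPM in BM (log2 fold change -0.97, SE 0.14, edgeR FDR 0.000605). The apolipoproteins and HDL-borne proteins outside the 10 members had a median log2 fold change of -0.30 in BF against NF and 0.23 in NF against NM, with 0 of 12 called. Their highest liver medians were those of CLU, SAA1 and APOC1, with 2935, 1568 and 1494 CPM. SAA1, an acute-phase protein that travels on HDL, ranged from 156 to 5840 CPM over the livers. The lists of assembly and secretion (highest P4HB, PDIA3 and DGAT2), of HDL remodelling and lipases (highest PON3, PON1 and GPLD1) and of receptors (highest LRP1, SORL1 and STAB2) had 0 of 10, 0 of 16 and 0 of 13 genes called. HNF4A, RXRA and NR1H3 were the highest of 14 transcription factors, with 519, 442 and 187 CPM.

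In the adrenal gland, which takes up HDL cholesterol for steroid synthesis, APOA1 was higher in females than in males under both breeding statuses. It had 6.45 to 80.7 CPM in NF (median 16.7) and 0.837 to 2.89 CPM in NM (median 1.25), with no overlap, as had 3.62% of the genes with at least 1 CPM. It had 2.32 to 33.6 CPM in BF (median 17.4) and 1.19 to 4.77 CPM in BM (median 1.81), where only BF 15 lay within the range of BM. The log2 fold change was 4.39 (SE 0.67, edgeR FDR 0.000411) in NF against NM and 2.86 (SE 0.62, edgeR FDR 0.00488) in BF against BM. APOA1 was the only member called by edgeR in each comparison. In NF against NM 3.41% of all genes were called and 2.13% called as higher, and in BF against BM 3.54% and 2.53%. The call in NF against NM was kept without each of the 24 animals, and the call in BF against BM was lost without each of 7, with FDRs of at most 0.0155. With read length as a covariate the log2 fold change in BF against BM was 2.87 (edgeR FDR 0.012), since the adrenal libraries of 3 BF and 2 NF had shorter reads, and without the 4 younger males it was 3.19 (edgeR FDR 0.0237).

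Other genes differed in the same direction in the adrenal gland. ABCG1, which exports cholesterol to HDL, had log2 fold changes of 0.95 and 1.26 in NF against NM and BF against BM, and DGAT1, which forms triglyceride, had 0.78 and 1.09. APOF was called in NF against NM (2.50), and VLDLR (1.09) and CEBPA (2.24) in BF against BM. Of the hepatocyte markers, 9 of 14 were tested, and the iron carrier TF was called in both comparisons (3.20 and 3.39) and SERPINA1 in BF against BM (3.23). The summed level of these markers was 92.0 to 304 CPM in NF and 48.0 to 284 CPM in NM, and 51.5 to 215 CPM in BF and 62.2 to 295 CPM in BM. ALB was at most 27.5 CPM in BF, 10.8 CPM in NF, 1.55 CPM in BM and 0.299 CPM in NM. The APOA1 level calculated from ALB was at most 0.0169 CPM, and all 24 libraries had more than 10 times theirs. Of 9 macrophage markers tested, AIF1, MSR1 and VSIG4 were called as higher in females in both comparisons. In NF against NM 9 of 9 were higher (median log2 fold change 0.56), and in BF against BM 8 of 9 (0.53). This list summed to 236 to 766 CPM in NF and 291 to 441 CPM in NM, and to 274 to 773 CPM in BF and 185 to 425 CPM in BM. Its part in the APOA1 result was not tested. The adrenal cortex markers had 0 of 6 tested genes called in either comparison. CETP had 33.0 to 180 CPM in NF (median 120) and 21.7 to 66.2 CPM in NM (median 53.0), with a log2 fold change of 1.23 (SE 0.33, edgeR FDR 0.0209), and DESeq2 called it with an adjusted p of 0.00285, beside 5.61% of all genes in NF against NM and 5.86% in BF against BM.

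In the kidney, LCAT was higher and APOH lower in females, each called by edgeR in 1 of the 2 sex comparisons. In BF against BM, where LCAT was called, 0.388% of genes were called, and in NF against NM, where APOH was called, 0.411%. DESeq2 called both genes in both comparisons, beside 0.725% of genes in BF against BM and 0.661% in NF against NM. LCAT had 49.6 to 132 CPM in BF (median 79.0) and 17.2 to 46.0 CPM in BM (median 27.6), with a log2 fold change of 1.55 (SE 0.30, edgeR FDR 0.0071). In NF it had 43.1 to 120 CPM (median 70.0) and in NM 22.1 to 42.4 CPM (median 27.3), with a log2 fold change of 1.38 (SE 0.29, edgeR FDR 0.0193, DESeq2 adjusted p 0.000497). The groups did not overlap in either comparison, where 2.6% (BF and BM) and 0.667% (NF and NM) of the genes with at least 1 CPM had no overlap. Proximal tubule markers summed to 4492 to 7012 CPM in BF and 1903 to 5136 CPM in BM, and 5 of 5 were higher in BF. In NF and NM they summed to 1161 to 8059 CPM and 2848 to 4214 CPM, with 3 of 5 higher in NF, and none of them was called. Adrenal cortex markers, a neighbouring tissue, summed to 1.15 to 504 CPM in BF kidneys and 0.666 to 8.98 CPM in BM kidneys. The part of either list in the LCAT result was not tested. Without the 4 younger males the log2 fold change of LCAT in BF against BM was 1.5 (edgeR FDR 0.0991), and the call was lost without each of 9 of the 24 animals (edgeR FDRs of at most 0.0247).

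APOH in kidney had 0 to 1.44 CPM in NF and 2.97 to 26.8 CPM in NM, where NM 19 was highest and the others had at most 7.05 CPM. In counts this was 0 to 13 per library in NF and 43 to 394 in NM. The log2 fold change was -4.11 (SE 0.80, edgeR FDR 0.00812), and without NM 19 it was -3.35 (edgeR FDR 0.0331), the highest FDR among the 15 of 24 animals whose removal lost the call. Without the 4 younger males it was -3.27 (edgeR FDR 0.0845). In BF it had 0.192 to 0.904 CPM and in BM 0.403 to 12.9 CPM, with a log2 fold change of -3.60 (SE 0.78, edgeR FDR 0.0222, DESeq2 adjusted p 0.000194). ALB in kidney was at most 0.845 CPM and gave a calculated APOH level of at most 0.0412 CPM.

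In the pituitary, APOE was lower and CETP higher in NF than in NM, where 0.752% of genes were called. APOE had 1353 to 1897 CPM in NF (median 1501) and 2044 to 3402 CPM in NM (median 2490), with no overlap, as had 2.02% of the genes with at least 1 CPM, and a log2 fold change of -0.76 (SE 0.15, edgeR FDR 0.00816). CETP had 3.13 to 6.99 CPM in NF (median 5.17) and 1.31 to 3.28 CPM in NM (median 2.57), with a log2 fold change of 1.08 (SE 0.22, edgeR FDR 0.00816). For CETP only NF 09 lay within the range of NM. Neither was called in BF against BM, where 0.43% of genes were called. There APOE had 1475 to 2522 CPM in BF and 2076 to 3602 CPM in BM, and CETP 3.18 to 5.60 CPM in BF and 2.20 to 3.73 CPM in BM. Each call was lost without each of 13 of the 23 animals, with edgeR FDRs of at most 0.0247. Without the 3 younger males that have a pituitary library the log2 fold changes were -0.87 (edgeR FDR 0.0132) for APOE and 0.96 (edgeR FDR 0.0306) for CETP. Astrocyte markers, a cell type that makes APOE, summed to 195 to 728 CPM in NF and 367 to 508 CPM in NM, with 0 of 5 called. Macrophage markers summed to 71.7 to 172 CPM in NF and 66.0 to 133 CPM in NM, with 4 of 8 higher in NF and 0 of 8 called. Endothelial markers summed to 488 to 811 CPM in NF and 378 to 631 CPM in NM, with 5 of 5 higher in NF and none called. Stellate cell and fibroblast markers summed to 491 to 961 CPM in NF and 345 to 835 CPM in NM, with 4 of 6 higher in NF, a median log2 fold change of 0.01 and 1 called, PDGFRB (0.71). Their part in the APOE result was not tested. CUBN, a receptor for APOA1, was called as higher in females in both comparisons, with log2 fold changes of 1.78 in NF against NM and 1.68 in BF against BM.

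**Figure D4:**
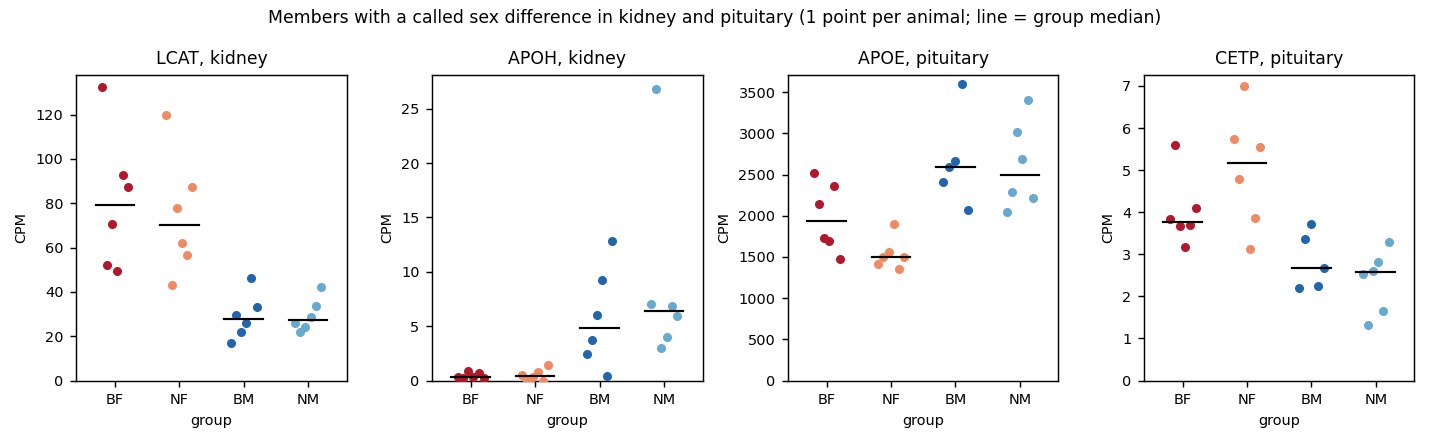
LCAT and APOH in kidney and APOE and CETP in pituitary in CPM, with 1 point per animal, columns for BF, NF, BM and NM, and a line at each group median. Kidney LCAT of females lies above that of males (43.1 to 132 against 17.2 to 46.0 CPM, overlapping between NF and BM), and pituitary APOE of NF lies below that of NM.

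Outside liver, breeding status gave no called member. In BF against NF, 0 of 51 tests of a member in a tissue were called over 9 tissues, with 11 at an unadjusted edgeR p below 0.05, and 0.00166% of all gene tests were called. In BM against NM, 0 of 53 were called, with 4 below 0.05, and 0% of all gene tests were called. Sex differences made 4 calls among 46 tests in NF against NM (2 higher and 2 lower, 0.573% of all gene tests) and 2 among 46 in BF against BM (both higher, 1.97% of all gene tests). The interaction was called for 0 of 46, with 2 below 0.05, and for 0% of all gene tests. In the sex comparisons 11 of 46 (NF against NM) and 18 of 46 (BF against BM) were below 0.05. The share of all gene tests below an unadjusted 0.05 is not given, so no excess can be read from any of these counts. DESeq2 called 1 member in a tissue in BF against NF (CETP in thyroid, 0.744% of all gene tests), 0 in BM against NM (0.00567%), 7 in NF against NM (1.02%, of which 6 among the 46 tests and 1, APOA2 in adrenal gland with 0 to 52 counts, outside the filter of edgeR), 4 in BF against BM (3.12%) and 0 in the interaction (0.0181%). CETP in thyroid had 4.60 to 13.4 CPM in BF (median 7.58) and 2.18 to 4.97 CPM in NF (median 3.87), with a log2 fold change of 1.21 (SE 0.32, edgeR FDR 0.0213, DESeq2 adjusted p 0.00451, beside 6.6% of genes in thyroid). The thyroid libraries of 3 BF and 1 NF had shorter reads, and with read length as a covariate the log2 fold change was 1.22 (edgeR FDR 0.0565). The 6 calls of edgeR came from the adrenal gland, the kidney and the pituitary.

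The members were also compared with each other from liver to liver. Over the 24 livers, after the group mean was removed from log2(CPM + 1), 9 of 45 pairs of members passed an FDR of 0.05 for Pearson's r (animals permuted within groups, 100000 permutations, two-sided), 4 positive and 5 negative. Genes in a library share its depth and composition, and pairs of other genes were not tested. Nothing particular to the members can therefore be read from this count. The strongest pairs of members were APOB with APOH (r = -0.695, rho = -0.714, FDR 0.0063 and 0.0148, permutation test) and APOA2 with CETP (r = 0.684, rho = 0.636, FDR 0.0101 and 0.0299, permutation test). Without the 2 livers farthest from the median of the first gene, these had r = -0.619 and r = 0.568. APOA1 was positively correlated with its neighbour APOA4 (r = 0.607, rho = 0.576, FDR 0.0252 and 0.0327, permutation test, r = 0.485 without the 2 farthest livers). The negative pairs depended on the scale. With CPM scaled by the trimmed mean of M values (TMM), 7 positive and 0 negative pairs passed. Without the 4 younger males, over 20 livers, 0 pairs passed for Pearson's r. For Spearman's rho 1 pair passed there, APOB with APOH (rho = -0.747, FDR 0.0189, permutation test). In these 20 livers r was -0.642 for APOB with APOH, 0.621 for APOA2 with CETP and 0.523 for APOA1 with APOA4.

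In the genome of the GP, as in other mammals, APOA4, APOC3 and APOA1 lie next to each other, and this group was followed outside liver as a choice made after the levels were seen. Of 7 relations in tissues where both genes had a median of at least 1 CPM, 3 passed an FDR of 0.05 in the same permutation test. The FDR covers these 7 relations only, and pairs of other genes in these tissues were not tested. APOA1 with APOA4 had r = 0.753 (rho = 0.754, FDR 0.00147) in 24 adrenal glands, APOA4 with APOC3 had r = 0.721 (rho = 0.724, FDR 0.0015) in 22 thyroids and r = 0.745 (rho = 0.612, FDR 0.00742) in 24 kidneys. Without the 2 farthest libraries these were 0.672, 0.649 and 0.585. Without the libraries of shorter reads the adrenal gland gave 0.744 and the thyroid 0.72, and without the younger males the 3 relations gave 0.747, 0.556 and 0.763. In heart, where APOA1 was highest, its r was -0.0406 with APOA4 and 0.228 with APOC3 (permutation p = 0.854 and 0.279). APOA4 in the adrenal gland was low, with 2 to 54 counts per library, and 19 of 24 libraries had more than 10 times the APOA4 level calculated from their ALB.

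**Figure D5:**
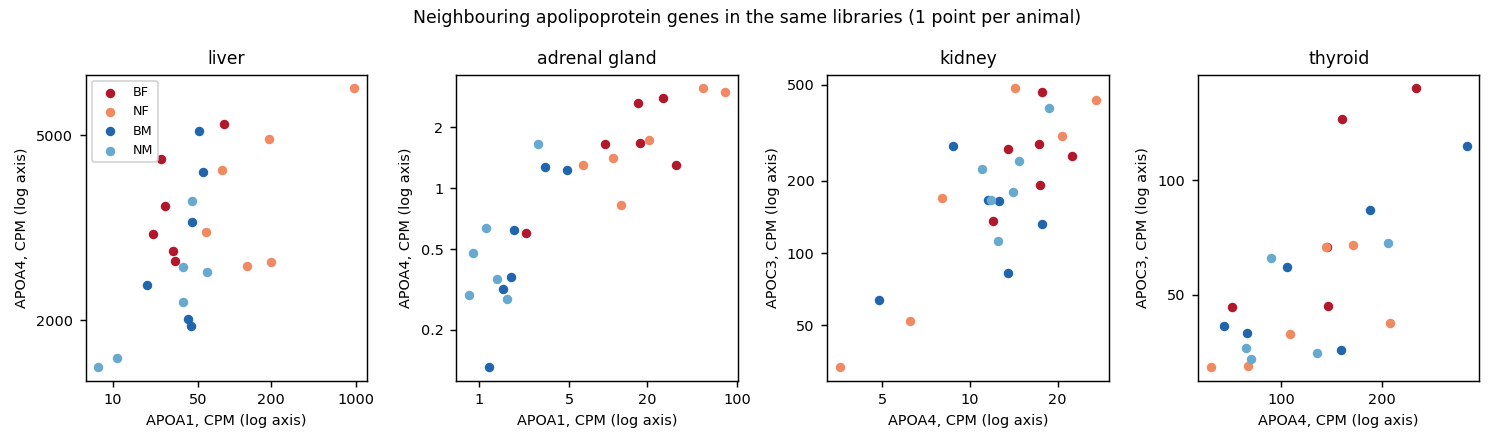
APOA1 against APOA4 in liver and adrenal gland and APOA4 against APOC3 in kidney and thyroid, in CPM on log axes, with 1 point per animal coloured by group. APOA1 and APOA4 are high in the same adrenal glands, mostly of females, and the highest liver for both is that of NF 06 (967 and 6312 CPM).

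As a description, the pattern of each member over the 11 tissue means of log2(CPM + 1) was set against that of 15535 genes. APOB was most like F11, UGT2A3 and F9 and APOH most like HABP2, SERPINA11 and SPP2, with r of 0.999 to 1 over 11 points, and APOA2 most like UGT1A9, UGT1A3 and F11 (r = 0.999). APOA1 was most like FAM210A, POLDIP2 and STBD1 (r = 0.899 to 0.869), SCARB1 most like PSMD9, MTMR14 and MSMO1 (r = 0.922 to 0.89), and CETP most like GPR182, PTGIR and NIPSNAP3A (r = 0.97 to 0.929). CD3E and OCA2 were among the 3 genes most like APOC3 (r = 0.947 and 0.945). APOA4 was most like MS4A1, KLKB1 and TXK, APOE most like C8orf47, COL18A1 and SLC35E3, and LCAT most like SEPHS2, FMO5 and EPHX1, with r of 0.95 to 0.874. Over the 24 livers, with group means removed, the genes nearest to APOA1 were IFNAR2, TRAM1 and SUMO3 (r = 0.843 to 0.715), and IFNAR2 was also among the 3 nearest to APOA4 (r = 0.737). The nearest to APOB were PCYT1A, PARG and MOCOS (r = 0.905 to 0.869), and to APOE C19orf53, MRPL4 and NDUFS6 (r = 0.868 to 0.852). Points within a tissue or a library share its depth and composition, so these values carry no p.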

How the data were processed

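RNA was sequenced single-end from unstranded TruSeq libraries. Per the labels and the methods of the study, the authors aligned reads to cavPor3 with STAR 2.4.1d, discarded reads with several positions and counted the rest with HTSeq over the genes of their own transcript set. What they deposited is a table of unnormalized counts (16009 genes, 238 libraries), of which 0 columns lacked a sample. The thyroid library of NM 19, which the authors excluded, was left out. Groups were taken from the sample labels, and replicates are separate animals.

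Levels are CPM of the library total. In each tissue all groups entered 1 robust quasi-likelihood fit of edgeR 4.0.16 (R 4.3.3), on TMM factors and on genes that filterByExpr kept (10 counts in enough libraries, 15 in all), adjusted by Benjamini-Hochberg over all genes, with calls at an FDR below 0.01. SEs were computed from the fold change and the F value, and 95% intervals from the SE. DESeq2 1.42.0, median-of-ratios scaling, no filter, the 2 compared groups alone, leaving out the 4 younger males, read length as a covariate, the excluded library, the skin of NM 30 and each animal in turn (liver, adrenal gland, kidney and pituitary) were the alternatives. Read lengths came from the library table of the study. The level calculated from ALB is the liver level of a gene times the share of liver ALB in the library. Correlations used Python 3.11.15 with numpy and scipy. The pipelines were tested on simulated data.

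The members, gene lists and tests were chosen with earlier results of these data known. Every member is named. Outside liver a member is described where its median is at least 1 CPM or where it is called, and of the lists the called genes and the 3 highest in liver are named. Some genes that these rules would name are not reported here. The genes most like a member are the 3 with the highest r, over tissues among genes with a mean log2(CPM + 1) of at least 1 in some tissue, and over livers among genes with a median of at least 10 CPM. Gene order came from RefSeq names of another build, so no coordinates or sequences are given. Genes that share reads with a near copy or an overlapping gene are uncertain.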

Additional observations from a re-analysis of the deposited data

Results flagged for a closer look

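In each group of 5 or 6 animals, an animal was picked out when its distance to the nearest other exceeded Dixon's 95% limit for the group's range. This was done for 72 groups, those of the 10 members in liver and of the members described by group elsewhere. With normally distributed values, chance alone would pick about 1 group in 20. The rule picked 7, but CPM need not follow this distribution, so no excess can be read from that count. In liver, APOA1 of NF 06 had 967 CPM, against 58.0 to 199 CPM in the other NF, and APOA1 of BF 12 had 81.2 CPM, against 21.5 to 32.5 CPM in the other BF. CETP of BM 20, a younger animal, had 80.1 CPM in liver, the lowest of the group, against 118 to 138 CPM in the other BM. APOH of NM 19, also a younger animal, had 26.8 CPM in kidney, against 2.97 to 7.05 CPM in the other NM. APOE of NF 09 had 1897 CPM in pituitary, against 1353 to 1556 CPM in the other NF. APOA1 of BM 22 had 235 CPM in testis, against 195 to 209 CPM in the other BM. SCARB1 of BF 05 had 1957 CPM in adrenal gland, against 1427 to 1588 CPM in the other BF. 

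In the thyroid library of NM 19, which entered no comparison, APOE had 1465 CPM, against 266 to 838 CPM in the other 22 thyroids. APOA4 had 0.145 CPM and APOC3 0.579 CPM in it, below the other thyroids (from 61.6 and 32.4 CPM).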

How the results depend on the processing

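No paired analysis was possible because no animal is in both groups of a comparison. The 6 calls of edgeR outside liver were also made with median-of-ratios scaling and by DESeq2. So were the 2 in liver, but these rest on the values that chose the members and are no test of them. In liver, members called in NF against NM were 1, but 0 without the filter, with only the 2 groups fitted or without the younger males, and 0 to 1 without each animal. In BF against BM they were 1, but 0 with only the 2 groups fitted or without the younger males, and 0 to 1 without each animal. In BF against NF they were 0, but 1 with DESeq2. Outside liver, calls in NF against NM were 4, but 7 with DESeq2 (1 of them in a test that the filter of edgeR left out), 1 with only the 2 groups fitted, 1 without the younger males and 2 to 5 without each animal. In BF against BM they were 2, but 4 with DESeq2, 1 with only the 2 groups fitted, 1 with read length as a covariate, 0 without the younger males and 1 to 3 without each animal. In BF against NF they were 0, but 1 with DESeq2. Calls among the other lipoprotein genes were 12, and 27 with DESeq2. Pairs of members that passed for Pearson's r across livers were 9, but 0 without the younger males, where 1 passed for Spearman's rho. The APOA1 log2 fold change in BM against NM in liver was 0.33, and -0.03 without the younger males. That of SCARB1 was -0.07, and between -0.13 and 0.01 without each animal (0.01 without BM 24, 0.00 without NM 30). Fits without the younger males hold 4 males per group in place of 5 or 6, and the cause of the lost calls was not tested.

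In liver, the count in NF against NM was 0 without BF 01, 02 and 15, BM 20, 21, 24 and 25, NF 03, 06, 08 and 11, and NM 18, 19, 23, 28 and 29, and in BF against BM without BF 01, 02, 12 and 14, BM 20, 21 and 22, and NM 29. Outside liver, single animals also ended calls, with log2 fold changes of the same sign in every fit (in parentheses the range of edgeR FDRs over all such fits). The call was lost for APOA1 in the adrenal gland of breeders without BF 12 and 14 and BM 16, 20, 21, 24 and 25 (0.00197 to 0.0155). In kidney, LCAT was lost without BF 01, 05, 14 and 15 and BM 16, 20, 21, 22 and 25 (0.00265 to 0.0247), and APOH without BF 01, 02, 12, 14 and 15, BM 20, 21 and 22, NF 03, 06, 08, 09 and 11, and NM 19 and 29 (0.00274 to 0.0331). In pituitary, APOE was lost without BF 02, BM 16, 21 and 22, NF 03, 06, 08, 11 and 13, and NM 19, 23, 28 and 29 (0.00451 to 0.0247), and CETP without BF 01, 14 and 15, BM 25, NF 03, 06, 08 and 13, and NM 18, 19, 23, 28 and 29 (0.00415 to 0.0245). TMM scaling over all tissues put liver levels higher (APOA4 at 5120 in place of 2942 CPM), and the tissue with the highest median was the same for all 10 members. Precision was limited by 6 animals per group and, for APOH in kidney and APOA4 in adrenal gland, by low counts.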
